A study of Homo sapiens with 3 samples.

Results

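The genes described here encode receptors for fast and slow neurotransmitters: GABA-A and GABA-B receptors, ionotropic and metabotropic glutamate receptors, muscarinic and nicotinic acetylcholine receptors, serotonin, adrenergic and glycine receptors, and P2Y nucleotide receptors. Members were taken by gene name alone, as all probe sets annotated with a single symbol of these families, together with KCTD12, an auxiliary protein of the GABA-B receptor. The rule found 93 genes on 191 probe sets, out of 19775 genes on 41091 probe sets with a single symbol. Of these genes 41 had 1 probe set and 52 had several, with at most 6.

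The study used 3 Affymetrix arrays to compare cultures made from H9, an established line of human embryonic stem cells. All cells were differentiated through embryoid bodies after removal from mouse feeder cells. Neuroepithelial cells, an early neural progenitor stage, were taken at day 17 and received no morphogen. Astrocytes were taken at day 210 after retinoic acid (RA) or the growth factor FGF8 from day 10 to day 21. Each group is 1 array of 1 line, so differences between arrays have no replicates behind them and the precision is limited by the small number of arrays. The labelled cell types were checked against marker lists. GFAP, AQP4 and S100B, which mark astrocytes, lay below the detection floor in neuroepithelial cells and were at least 63.9-fold higher in both astrocyte arrays, whereas the progenitor gene LIN28A was at least 136-fold lower there. Of 10 neuroepithelial markers 9 were at least 2-fold lower on each astrocyte array. CDH1 was within 2-fold with RA and SOX1 with FGF8. PAX6 was 3.15-fold lower with RA and 3.64-fold lower with FGF8. The astrocyte connexin GJB6 lay at the floor on all 3 arrays and ALDH1L1, another astrocyte marker, differed by 0.26 log2 units (RA) and 0.19 (FGF8) from neuroepithelial cells.

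Ionotropic receptors are ion channels that open when a transmitter binds, and each is built from several subunits encoded by separate genes. Metabotropic receptors instead act through G proteins on second messengers. Neurons use both kinds at synapses. Astrocytes carry many of them as well, and respond to glutamate, GABA, acetylcholine, noradrenaline and ATP with changes in intracellular calcium, while neural progenitors use GABA and glutamate receptors as developmental signals before synapses form.

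Values below are array intensities after quantile normalization, a step that gives the 3 arrays the same distribution. The floor was an intensity of 26.4, which is the middle value over non-control probe sets. A value under it is called at the floor. Where 1 of the arrays compared was at the floor, the difference is a minimum, given as at least N-fold. Genes with no value over the floor on either array were not compared. A difference of at least 2-fold is called higher or lower. Intensities are compared between arrays for a given probe set, never between genes, since probe sets differ in how strongly they bind. Each gene is represented by its main probe set, the one with the highest mean log2 intensity.

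Control signals, among them signs of RNA quality, differed between the arrays. The ratio of ACTB signal at the 3' end to that at the 5' end was 1.33 in neuroepithelial cells, 6.67 with RA and 6.63 with FGF8, so it set both astrocyte arrays apart from the neuroepithelial array and not from each other. The same ratio for GAPDH was 0.98, 1.79 and 1.65, a smaller shift in the same direction. Spiked control transcripts were 1.39 log2 units brighter with RA than in neuroepithelial cells (SD 0.22 over 18 probe sets), and 0.12 brighter with FGF8 (SD 0.16). The part of these shifts in the receptor differences was not tested. Setting array medians equal instead of quantile normalizing moved the median of all genes against neuroepithelial cells to 0.35 with RA and 0.42 with FGF8. It made 70.8% and 75.8% of all called genes higher, against 55.4% and 55.6%. For the receptor genes the counts under that scaling were 14 higher and 8 lower with RA, and 15 higher and 6 lower with FGF8.

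Receptor genes were more often at the floor than genes at large. Of the 93 receptor genes 49 (52.7%) lay at the floor on all 3 arrays, against 30.5% of all genes. Above it on every array were 13 of the 93, against 10310 of all 19775 genes. Between 27 and 30 were above the floor on a given array, with 27 in neuroepithelial cells, 28 in RA astrocytes and 30 in FGF8 astrocytes. These are 29%, 30.1% and 32.3% of the members, against 60.4%, 61.1% and 59.9% of all genes. All 4 AMPA subunits, the only delta subunit measured and all 3 GABA-B genes were above the floor somewhere. In contrast 12 of 15 serotonin, 6 of 8 P2Y, 4 of 5 muscarinic and 9 of 15 GABA-A genes were at the floor throughout. A gene at the floor may still be transcribed at a low level or be missed by its probe set.

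**Figure D1:**
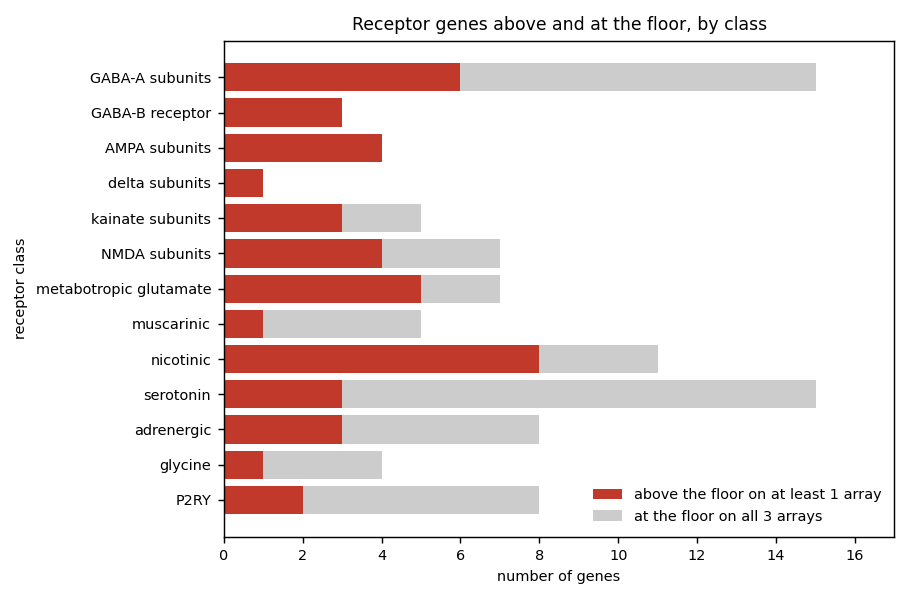
Number of receptor genes in each of 13 classes (horizontal axis) whose main probe set was above the floor on at least 1 array (red) or at the floor on all 3 (grey). All AMPA, delta and GABA-B genes are red, whereas 12 of 15 serotonin genes are grey.

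Against neuroepithelial cells, 15 receptor genes were at least 2-fold higher in RA astrocytes and 8 lower, of 39 compared. The same direction and size held for 18.1% (higher) and 14.6% (lower) of all 13339 genes compared. The members' shares were 38.5% and 20.5%, and 59% were called in either direction, against 32.7% of all genes compared. Of the 15 higher genes 7 were bounds. In FGF8 astrocytes 13 of 40 compared were higher and 6 lower (32.5% and 15%), against 12.8% and 10.2% of all 13004 genes compared. In either direction this was 47.5% against 23.1%, and 7 of the 13 were bounds. A gene that lay above the floor on 1 array alone could be compared only because it differed, so the shares of all 93 members are also given. They were 16.1% higher and 8.6% lower in RA astrocytes, beside 12.2% and 9.84% of all genes on the array, and 14% and 6.45% in FGF8 astrocytes, beside 8.42% and 6.74%. Thus over all members the share of lower genes lay close to the background in both comparisons. The median log2 difference of the compared members was 0.34 in RA astrocytes and 0.27 in FGF8 astrocytes, against 0.07 and 0.05 for all genes. These comparisons share the neuroepithelial array and are not independent.

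Between the astrocyte arrays, 8 receptor genes were at least 2-fold higher with RA and 6 higher with FGF8, of 37 compared. The background was 9.69% and 7.86% of 12958 genes compared, and the members' shares were 21.6% and 16.2%, or 37.8% in either direction against 17.5%. Over all 93 members the shares were 8.6% and 6.45%, beside 6.35% and 5.15% of all genes on the array. The median difference was 0.07, against 0.01 for all genes. The genes higher with RA made up 57.1% of those called, and 46.7% (7 of 15) with array medians set equal, so the split between the cultures turned with the scaling.

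**Figure D2:**
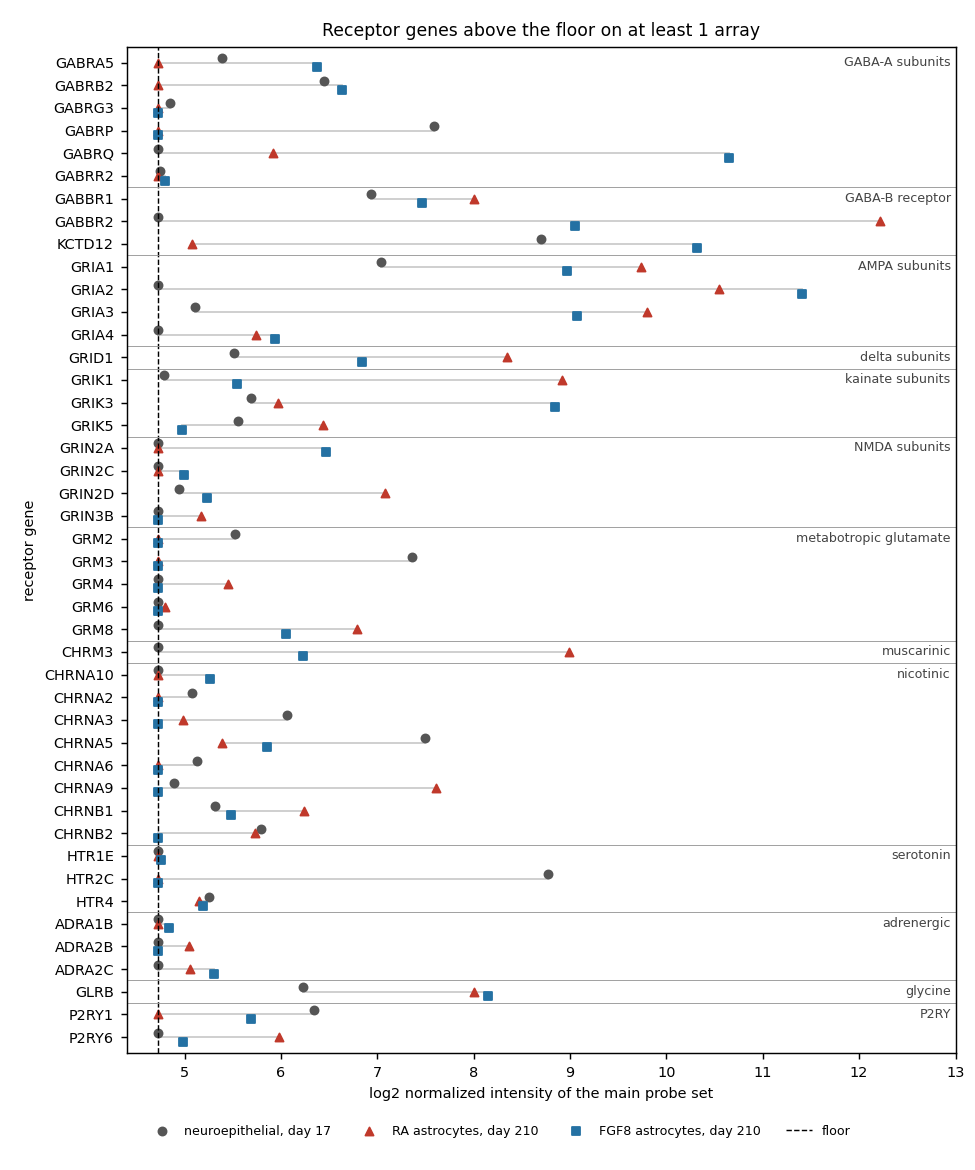
Log2 normalized intensity (horizontal axis) of the 44 receptor genes above the floor on at least 1 array, ordered by class, with a circle for neuroepithelial cells, a triangle for RA astrocytes and a square for FGF8 astrocytes, shifted slightly in height to stay visible. The dashed line is the floor, where values have no order. AMPA genes lie to the right in both astrocyte arrays, while HTR2C, GABRP and GRM3 are above the floor in neuroepithelial cells alone.

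AMPA receptors carry most fast excitatory transmission, and all of their subunit genes were higher in both astrocyte arrays than in neuroepithelial cells. GRIA2, whose edited subunit makes the channel impermeable to calcium, was at the floor in neuroepithelial cells, at 1494 in RA astrocytes and at 2723 in FGF8 astrocytes. It was thus at least 56.7-fold and at least 103-fold higher, and a separate probe set gave at least 48.0-fold and at least 81.7-fold. A further GRIA2 probe set was at the floor on both the neuroepithelial and RA arrays and at 27.0 with FGF8, so it measured no difference. GRIA3, another pore-forming subunit, had intensities of 34.5 in neuroepithelial cells, 888 with RA and 537 with FGF8, which is 25.8-fold and 15.6-fold higher. The size depended on the probe set: the other GRIA3 probe set above the floor on all 3 arrays gave 1.57-fold and 2.58-fold, and 2 further ones gave at least 8.28-fold and at least 4.39-fold with RA and at least 7.77-fold and at least 2.04-fold with FGF8. A dim GRIA3 probe set was above the floor with RA alone, at 29.7. GRIA1 stood at 132, 853 and 500 in the same order and was 6.47-fold and 3.79-fold higher, with 2.61-fold and 2.13-fold on its other probe set. The main probe sets of both genes were above the floor on all 3 arrays, so these fold changes are measured on each side.

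GRIA4 was the weakest case. Its main probe set was at the floor in neuroepithelial cells and at 53.4 (RA) and 61.1 (FGF8), so that it was at least 2.02-fold and at least 2.32-fold higher. The RA value dropped under 2-fold with the deposited intensities (0.86 log2 units) and with array medians set equal (0.99). A less specific GRIA4 probe set of the _x_at type, which can bind related transcripts, gave 27.3, 164 and 164. Between the astrocyte arrays each AMPA gene lay within 2-fold on its main probe set: RA minus FGF8 was 0.77 for GRIA1, -0.87 for GRIA2, 0.73 for GRIA3 and -0.20 for GRIA4. Another GRIA3 probe set gave -0.71, opposite to the main one, so the order of the astrocyte cultures for GRIA3 depends on the probe set. A further GRIA3 probe set, of the _s_at type, gave 1.11 and so passed 2-fold.

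AMPA receptors travel to the membrane with auxiliary proteins, some of which were measured too. CACNG4, a transmembrane regulator of AMPA channels, had intensities of 252 in neuroepithelial cells, 892 in RA astrocytes and 751 in FGF8 astrocytes. CNIH3, a cornichon that slows channel closing, was at 26.9 in neuroepithelial cells, just over the floor, and at 127 in both astrocyte arrays. CNIH2, its close relative, was at 46.6, 175 and 57.6, and so was 3.75-fold higher with RA but 1.24-fold with FGF8. SHISA6, which keeps AMPA receptors at synapses, went the other way, from 86.9 to the floor in both. GRIP1, a scaffold that binds GRIA2 and GRIA3 proteins, was 2.62-fold and 2.70-fold lower.

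The sequences upstream of 3 AMPA genes are shown because these genes were higher together in both astrocyte arrays; they cover the 250 bases before the annotated start, on the gene's own strand, from RefSeq (GRCh38.p14). They lie at chr5:153490420-153490669, chr4:157219870-157220119 and chr11:105610456-105610705, all on the plus strand, and capitals mark each CG dinucleotide, the site of DNA methylation in mammals.

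GRIA1: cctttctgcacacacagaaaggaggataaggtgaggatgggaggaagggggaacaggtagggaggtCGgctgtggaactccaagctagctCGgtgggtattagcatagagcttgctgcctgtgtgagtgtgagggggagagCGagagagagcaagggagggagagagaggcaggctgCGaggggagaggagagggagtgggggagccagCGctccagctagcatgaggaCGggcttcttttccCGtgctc

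GRIA2: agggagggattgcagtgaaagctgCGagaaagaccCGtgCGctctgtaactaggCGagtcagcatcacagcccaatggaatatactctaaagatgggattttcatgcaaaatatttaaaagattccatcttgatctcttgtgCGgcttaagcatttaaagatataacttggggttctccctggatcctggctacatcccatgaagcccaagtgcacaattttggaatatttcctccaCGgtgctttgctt

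GRIA4: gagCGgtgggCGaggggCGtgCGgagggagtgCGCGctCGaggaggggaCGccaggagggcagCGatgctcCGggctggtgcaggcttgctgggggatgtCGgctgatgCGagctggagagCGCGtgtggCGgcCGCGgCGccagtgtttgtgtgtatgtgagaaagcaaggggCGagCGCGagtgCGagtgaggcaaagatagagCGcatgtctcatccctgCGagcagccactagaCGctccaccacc

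The 3 windows were unlike each other in base composition. GRIA2 held 6 CG dinucleotides at 44.4% G+C, GRIA1 held 7 at 60%, and GRIA4 held 25 at 67.6%, against a median of 11 and 58% over 27305 RefSeq promoters. None of 5 short motifs searched on both strands occurred in these 3 windows: TTGGC (the core of nuclear factor I sites), GGGCGG (the GC box), TATAAA (the TATA box), CAGCACC (part of the RE1 element) and AGGTCA (the core of nuclear receptor elements). The motifs occur in 41.3%, 42.3%, 11.1%, 6.07% and 12.1% of all those windows. No overlap between motifs was counted, and a missing match says only that these letters are absent from this window.

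On their main probe sets, the delta and kainate subunits above the floor separated the astrocyte cultures more than AMPA subunits did. GRID1, a delta subunit that acts as a synaptic organiser, had intensities of 45.8 in neuroepithelial cells, 325 with RA and 114 with FGF8. It was 7.10-fold and 2.50-fold higher than in neuroepithelial cells and 2.84-fold higher with RA than with FGF8. Its other probe sets moved less, with RA minus neuroepithelial differences of 0.34 and 0.49, and 1 of them gave -0.29 for FGF8 minus neuroepithelial, so the FGF8 difference rests on the main probe set.

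GRIK1 and GRIK3, both kainate subunits able to form channels alone, went to opposite cultures. GRIK1 stood at 27.7 in neuroepithelial cells, 482 with RA and 46.7 with FGF8, and was 17.4-fold higher in RA astrocytes than in neuroepithelial cells and 10.3-fold higher than in FGF8 astrocytes. Of its other probe sets, 1 gave 260 with RA and 57.3 with FGF8, and another 73.5 and 32.4, the same order of the astrocyte arrays. These were at the floor in neuroepithelial cells, and so at least 9.86-fold and at least 2.79-fold higher with RA. GRIK3 stood at 51.7, 62.6 and 460, so it was 8.89-fold higher with FGF8 than in neuroepithelial cells and 7.34-fold higher than with RA. This call of GRIK3 comes from 1 probe set, since the other was at the floor throughout.

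GRIK5, a subunit that needs a partner such as GRIK1 or GRIK3 to make a channel, was at 47.0, 86.9 and 31.3. It was 2.77-fold higher with RA than with FGF8 on this probe set, but 1.14-fold on its _x_at probe set, which had 122, 307 and 268. GRIK2 and GRIK4 were at the floor on their main probe sets, and another GRIK2 probe set gave 35.0 in neuroepithelial cells. NETO2, an auxiliary protein of kainate receptors, was within 2-fold across the arrays at 1379, 1046 and 1623.

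NMDA receptors need the obligatory subunit encoded by GRIN1, and all GRIN1 probe sets were at the floor on all 3 arrays. Of the subunits that join it, GRIN2D, typical of early development, had intensities of 30.7 in neuroepithelial cells, 136 with RA and 37.7 with FGF8. It was 4.43-fold higher in RA astrocytes than in neuroepithelial cells and 3.60-fold higher than in FGF8 astrocytes. Its _x_at probe set was above the floor with RA alone, at 31.2. GRIN2A, a subunit of mature synapses, was at the floor in neuroepithelial and RA cells and at 88.5 with FGF8, at least 3.36-fold higher. Another GRIN2A probe set gave 37.2, the floor and 146, with the FGF8 array again highest. GRIN2B and GRIN3A were at the floor throughout, GRIN2C reached 31.9 with FGF8 and GRIN3B 36.0 with RA, both close to the floor.

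Of the 7 metabotropic glutamate receptor genes, 5 were above the floor on at least 1 array. GRM3, a receptor coupled to inhibition of adenylyl cyclase and common in astrocytes of the adult brain, was at 165 in neuroepithelial cells and at the floor in both astrocyte arrays, at least 6.24-fold lower. GRM2, its nearest relative, was at 46.0 in neuroepithelial cells and at the floor in both astrocyte arrays, at least 1.75-fold lower and so short of the 2-fold limit. Its _x_at probe set gave 50.4, 32.3 and the floor, so this one was above the floor with RA too. GRM8, a presynaptic receptor in neurons, ran the other way, from the floor to 110 with RA and 66.6 with FGF8, at least 4.19-fold and at least 2.53-fold higher. This call of GRM8 comes from a single probe set of the less specific _s_at type, since its others were at the floor throughout. GRM5, the calcium-coupled receptor of immature astrocytes, and GRM7 were at the floor on all probe sets and arrays. GRM4 and GRM6 reached 43.6 and 27.7 in RA astrocytes alone. GRM2 passed 2-fold with the deposited intensities, at -1.04 log2 units in both comparisons.

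Several scaffold genes of glutamate synapses were lower in the astrocyte arrays and others were within 2-fold. HOMER1, which ties metabotropic receptors to calcium stores, had intensities of 484 in neuroepithelial cells, 171 with RA and 232 with FGF8, and was 2.84-fold and 2.08-fold lower. DLG3, a scaffold of NMDA receptors, was 2.51-fold and 3.56-fold lower, and SHANK2, which links them to the cytoskeleton, at least 2.84-fold lower in both. DLG1, GRIP2, DLG2, DLG4, HOMER3 and SHANK3 were within 2-fold or at bounds under it in both comparisons, with HOMER3 1.94-fold higher with FGF8. NSG1, a trafficking protein of AMPA receptors in neurons, was 9.48-fold and 6.78-fold lower. Of the pentraxins that cluster AMPA receptors, NPTX2 was at 157, the floor and 48.3, and the pentraxin receptor NPTXR at 60.8, 103 and 333, so that the pair ran in opposite directions with FGF8. NPTX1, another pentraxin, was 2.63-fold higher with RA. OLFM1, a secreted protein that binds AMPA receptor complexes, was lowest with RA at 189, 26.4 and 186. Of 48 partner genes on the array, 7 were higher and 8 lower in RA astrocytes (37 compared, median 0.39), 6 higher and 8 lower in FGF8 astrocytes (38 compared, median 0.09), and 6 higher and 3 lower with RA than with FGF8 (34 compared, median 0.02). In shares of those compared, 18.9% were higher and 21.6% lower with RA, and 15.8% and 21.1% with FGF8. The higher shares lay near the 18.1% and 12.8% of all genes, and the lower shares above the 14.6% and 10.2%. For RA against FGF8 the shares were 17.6% higher and 8.82% lower, beside 9.69% and 7.86% of all genes compared. With probe sets averaged the medians against neuroepithelial cells were 0.16 (RA) and 0.04 (FGF8), and with the deposited intensities 0.10 and -0.04.

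**Figure D3:**
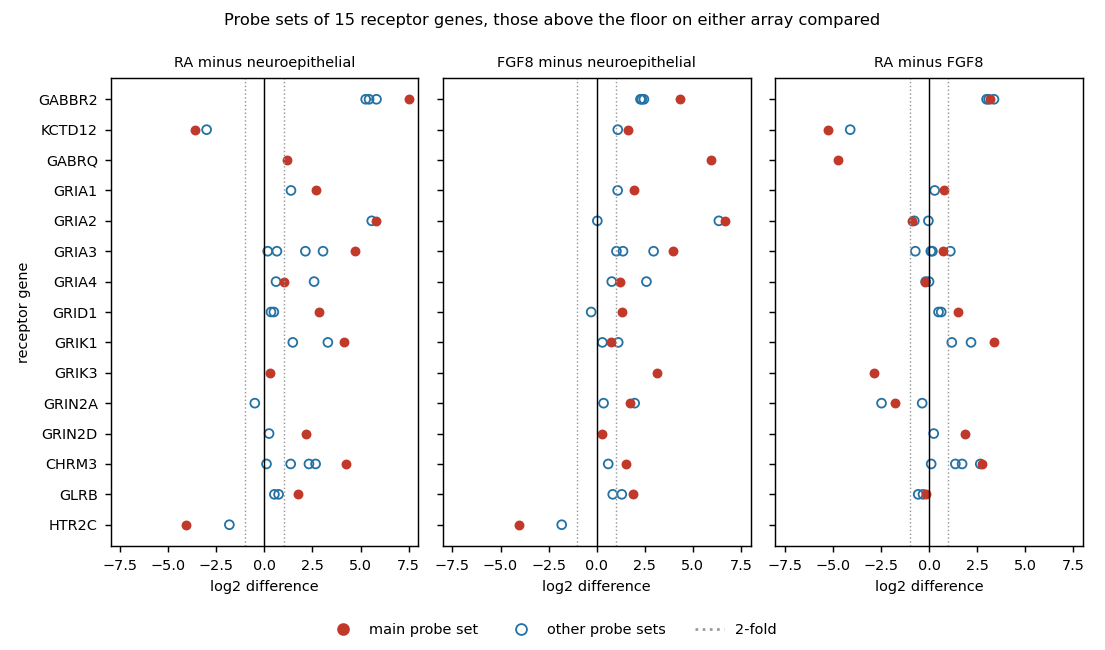
Log2 differences (horizontal axis, 3 panels for the 3 comparisons) of 15 receptor genes for the main probe set (filled) and their other probe sets (open), drawn only where at least 1 of the arrays compared was above the floor. Dotted lines mark 2-fold. The points of GABBR2, of KCTD12 and of HTR2C lie on 1 side of 0 in each panel where they appear, while GRIA3 and GRID1 have points on both sides in 1 panel each.

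GABA-B receptors are obligate pairs of a GABBR1 subunit, which binds GABA, and a GABBR2 subunit, which couples to the G protein, and KCTD12 binds GABBR2 and speeds the loss of response. The 3 genes differed in unlike ways. On its main probe set GABBR2 was at the floor in neuroepithelial cells, at 4763 in RA astrocytes and at 532 in FGF8 astrocytes. That is at least 181-fold and at least 20.2-fold higher than in neuroepithelial cells and 8.96-fold higher with RA than with FGF8. Its other 3 probe sets gave smaller differences from neuroepithelial cells, of at least 38.6-fold, at least 56.9-fold and 43.6-fold with RA, and of at least 4.85-fold, at least 5.48-fold and 5.09-fold with FGF8. The last of these was just above the floor in neuroepithelial cells, at 28.9. The size of the difference from neuroepithelial cells thus depends on the probe set, while the RA over FGF8 ratios of 7.96, 10.4 and 8.57 lay close to that of the main one. All 4 are of the less specific _s_at or _x_at types.

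GABBR1 varied much less, with intensities of 122 in neuroepithelial cells, 257 with RA and 177 with FGF8. It was 2.11-fold higher in RA astrocytes than in neuroepithelial cells, which fell to 0.95 log2 units with the deposited intensities, to 0.94 with the mean of its probe sets and to 0.80 without the _s_at and _x_at probe sets. KCTD12 was at 417, 33.8 and 1272 in the same order. It was 12.3-fold lower with RA and 3.05-fold higher with FGF8 than in neuroepithelial cells, and 37.6-fold lower with RA than with FGF8. Its second probe set gave 211, the floor and 452. RA astrocytes thus held the highest GABBR2 and the lowest KCTD12 signal, and FGF8 astrocytes the highest KCTD12 signal.

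Windows of 250 bases before the start of GABBR2 and KCTD12, and of the GABA-A gene GABRQ described next, are shown because these genes differed by more than 8-fold between the astrocyte arrays. They lie at chr9:98708936-98709185 and chr13:76886406-76886655 on the minus strand and chrX:152637645-152637894 on the plus strand (RefSeq, GRCh38.p14), and capitals again mark CG dinucleotides.

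GABBR2: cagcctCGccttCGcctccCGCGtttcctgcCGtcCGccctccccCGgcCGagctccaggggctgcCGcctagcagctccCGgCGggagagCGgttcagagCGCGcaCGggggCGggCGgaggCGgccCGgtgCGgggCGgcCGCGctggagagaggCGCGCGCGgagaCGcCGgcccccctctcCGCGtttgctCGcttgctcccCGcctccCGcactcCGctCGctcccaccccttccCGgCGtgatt

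KCTD12: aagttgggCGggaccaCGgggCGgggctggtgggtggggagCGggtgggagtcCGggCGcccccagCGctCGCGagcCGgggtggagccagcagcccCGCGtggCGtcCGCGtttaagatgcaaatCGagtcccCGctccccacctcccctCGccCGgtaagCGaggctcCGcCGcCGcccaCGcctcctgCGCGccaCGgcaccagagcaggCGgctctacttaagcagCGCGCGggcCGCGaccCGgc

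GABRQ: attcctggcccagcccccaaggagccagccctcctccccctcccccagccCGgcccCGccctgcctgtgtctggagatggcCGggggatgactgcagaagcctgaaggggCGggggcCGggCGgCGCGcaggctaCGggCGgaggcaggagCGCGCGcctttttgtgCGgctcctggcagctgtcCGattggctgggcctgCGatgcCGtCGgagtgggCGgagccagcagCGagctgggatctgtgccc

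These 3 windows were rich in CG dinucleotides, with 38 for GABBR2, 34 for KCTD12 and 20 for GABRQ, at 78%, 75.6% and 73.2% G+C. The GC box occurred 4 times upstream of GABBR2, 3 times upstream of KCTD12 and 5 times upstream of GABRQ, both strands counted. The TTGGC core occurred 1 time, upstream of GABRQ, and the other 3 motifs did not occur. The sequence table matched 73 of the 93 members. Of these, the 34 above the floor on any array had a median G+C of 66.4% (38% to 84.8%) and the 39 at the floor throughout a median of 58.8% (30% to 86.8%). GC boxes occurred in 55.9% of the former and 46.2% of the latter. The ranges overlap almost fully.

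GABA-A receptors are chloride channels assembled from several subunit types. GABRQ, which encodes the theta subunit, was at the floor in neuroepithelial cells, at 60.3 with RA and at 1602 with FGF8. It was at least 60.7-fold higher in FGF8 astrocytes than in neuroepithelial cells and 26.5-fold higher than in RA astrocytes. Its other probe set was at the floor on all arrays. GABRB2, a beta subunit, was at 87.2 in neuroepithelial cells, at the floor with RA and at 99.5 with FGF8. A further GABRB2 probe set gave 30.9, the floor and 53.5, the same order of the astrocyte arrays. But another gave 31.0, 41.6 and the floor, the opposite order. GABRA5, an alpha subunit of extrasynaptic receptors, was at 41.7, the floor and 82.8, so it was at least 3.14-fold lower with RA than with FGF8.

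GABRP, the pi subunit, known mainly from epithelial tissues, was at 193 in neuroepithelial cells and at the floor in both astrocyte arrays, at least 7.31-fold lower. GABRG3 and GABRR2 were close to the floor wherever they passed it, at 26.8 to 28.7. GABRA2, GABRA3, GABRA4, GABRA6, GABRB1, GABRD, GABRG1, GABRR1 and GABRR3 were at the floor on all arrays. Among proteins that hold GABA-A receptors in place, the anchor gephyrin (GPHN) was within 2-fold at 210, 339 and 212. NLGN2, an adhesion protein of inhibitory synapses, was 3.59-fold higher in RA astrocytes than in neuroepithelial cells and 2.58-fold higher than in FGF8 astrocytes. LHFPL4, a partner of GABA-A subunits, was at the floor in neuroepithelial cells, at 51.4 with RA and at 86.8 with FGF8.

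GABA neuron markers moved with the FGF8 culture. GAD1, which makes GABA, was at 51.9 in neuroepithelial cells, 276 with RA and 3647 with FGF8, and SLC32A1, which loads it into vesicles, at 27.1, 55.9 and 1050. Of 10 GABA neuron markers on the array, 8 were higher in FGF8 astrocytes than in neuroepithelial cells and 7 lower with RA than with FGF8, and their summed intensities were 2706, 1352 and 20169. LHX6 and SST, which mark a class of such neurons, were at the floor with FGF8. Of the 14 general neuron markers, 2 were higher and 7 lower in RA astrocytes (median -0.96), among the latter STMN2 and ELAVL4, 14.6-fold and 11.3-fold lower, and 4 were higher and 4 lower in FGF8 astrocytes (13 compared, median -0.09). Their summed intensities of 20137, 27475 and 26959 ran against these medians. GAP43 went from 922 to 12114 with RA and 5168 with FGF8. With FGF8 the sum also held higher values of DCX, at 2058, 583 and 6738, and of MAP2, at 2650, 3399 and 5756. The 4 lower with FGF8 were STMN2, at the floor there and at least 84.9-fold lower than in neuroepithelial cells, NEFM, ELAVL4 and INA. The last 3 were 5.33-fold, 4.25-fold and 2.46-fold lower. RBFOX3, a marker of mature neurons, was at the floor in both astrocyte arrays. Glutamate neuron markers summed to 503, 223 and 377, with values at the floor counted as the floor. Of 7 on the array 3, 4 and 1 were above the floor, and with FGF8 this was BCL11B alone, at 219. PDGFRA, the leading marker of oligodendrocyte precursors, was at 173, 794 and 5997. The sum of the 8 markers of those cells on the array was 465, 1173 and 6544, and PDGFRA made up most of it in both astrocyte arrays. OLIG1 was 3.33-fold higher with FGF8 than in neuroepithelial cells and OLIG2 1.76-fold, while CSPG4, SOX10, GPR17, MBP and MOG were at the floor with FGF8. SOX10 and GPR17 had been just above the floor in neuroepithelial cells, at 32.9 and 28.0. The part of these other cells in the receptor differences was not tested. In RNA from whole cultures, fewer cells of a type and less RNA per cell cannot be told apart.

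**Figure D4:**
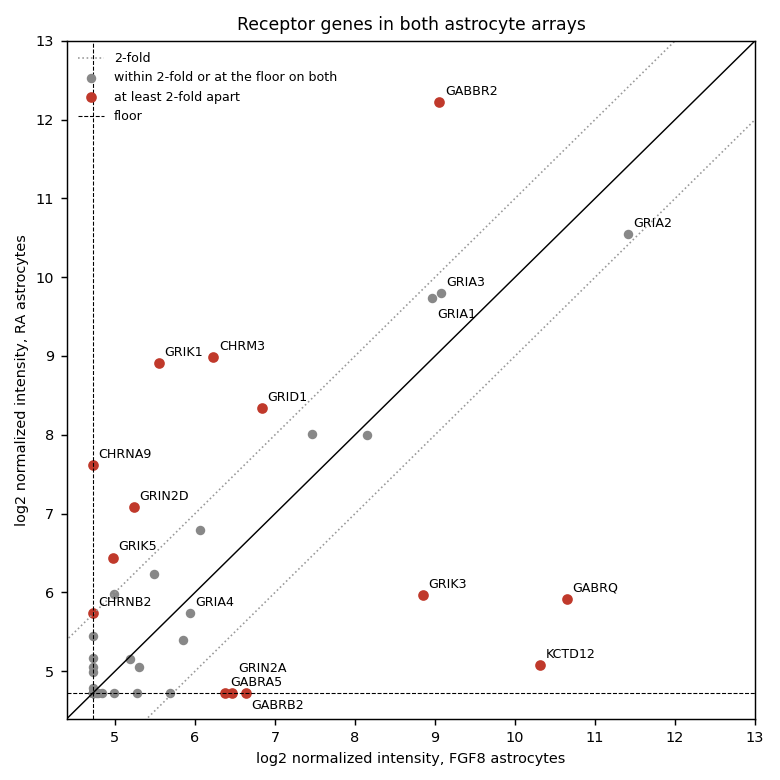
Log2 normalized intensity in RA astrocytes (vertical axis) against FGF8 astrocytes (horizontal axis) for the 44 receptor genes above the floor on at least 1 array. The solid line marks equal values, dotted lines 2-fold and dashed lines the floor. GABBR2, GRIK1 and CHRM3 lie above the band, KCTD12, GABRQ and GRIK3 below it, and the AMPA genes within it.

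Acetylcholine receptors also differed by culture. CHRM3, the muscarinic receptor that raises calcium through phospholipase C, was at the floor in neuroepithelial cells, at 507 with RA and at 75 with FGF8. It was at least 19.2-fold and at least 2.85-fold higher than in neuroepithelial cells and 6.75-fold higher with RA than with FGF8. Its other probe sets above the floor were each highest with RA, such as those at 31.3, 156 and 47.4 and at the floor, 167 and the floor, of which the first was 4.99-fold higher than in neuroepithelial cells with RA and 1.52-fold with FGF8. CHRM1, CHRM2, CHRM4 and CHRM5 were at the floor on all arrays.

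Among nicotinic subunits, CHRNA5 and CHRNA3 were highest in neuroepithelial cells. CHRNA5, an accessory subunit of ganglionic and brain receptors, was at 180 in neuroepithelial cells, 42.0 with RA and 57.7 with FGF8, and was 4.29-fold and 3.12-fold lower. CHRNA3, which pairs with beta subunits in autonomic ganglia, was at 67.0, 31.7 and the floor, 2.12-fold and at least 2.54-fold lower. CHRNA9, best known from the inner ear, was at 29.6, 196 and the floor, so it was 6.60-fold higher in RA astrocytes than in neuroepithelial cells and at least 7.42-fold higher than in FGF8 astrocytes, on 1 probe set.

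The remaining nicotinic genes were dim. CHRNB1, the beta subunit of muscle receptors, was within 2-fold at 39.8, 75.3 and 44.8. CHRNB2, the main beta subunit in brain, was at 55.4, 53.3 and the floor, but its other probe set was at the floor in neuroepithelial and RA cells and at 38.5 with FGF8. CHRNA2, CHRNA6 and CHRNA10 reached 33.7, 35.0 and 38.6 on 1 array each, and CHRNA1, CHRNB3 and CHRNB4 none. RIC3, which helps nicotinic receptors assemble, was at the floor in neuroepithelial cells, at 72.1 with RA and at 30.9 with FGF8. LYPD1, a protein that binds nicotinic receptors and dampens them, was at 186, 965 and 151 and so 6.39-fold higher with RA than with FGF8. The acetylcholine-cleaving enzyme BCHE was 5.70-fold and 9.84-fold higher in the astrocyte arrays than in neuroepithelial cells.

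HTR2C, a serotonin receptor of choroid plexus and neurons, was at 437 in neuroepithelial cells and at the floor in both astrocyte arrays, at least 16.6-fold lower. Its second probe set, at 93.1 and the floor in both, gave at least 3.53-fold. The choroid plexus gene TTR was likewise at 335 in neuroepithelial cells and at the floor in both astrocyte arrays. Of the same marker list, OTX2, also on the neuroepithelial list, was at 2546, 54.0 and 207, and AQP1 at 67.7, 157 and 34.7. FOXJ1, KCNE2 and CLIC6, the rest of that list, were at the floor in neuroepithelial cells. HTR4 was even at 38.2, 35.6 and 36.5, and HTR1E reached 27.1 with FGF8. The other 12 serotonin receptor genes, including HTR1A, HTR2A, HTR2B and HTR7, were at the floor on all arrays.

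Adrenergic receptors, through which noradrenaline acts on astrocytes, were close to the floor. ADRA2C, coupled to inhibition of adenylyl cyclase, reached 33.3 with RA and 39.5 with FGF8, ADRA2B 33.1 with RA and ADRA1B 28.7 with FGF8. ADRA1A, a calcium-coupled receptor, was at the floor on its main probe set and at 55.8 with FGF8 on another, and ADRB1 was at 31.9 in neuroepithelial cells on another. ADRA1D, ADRA2A and ADRB3 were at the floor on all their probe sets.

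GLRB, the beta subunit that anchors glycine receptors at synapses, was at 75.2 in neuroepithelial cells, 257 with RA and 283 with FGF8. It was 3.41-fold and 3.76-fold higher than in neuroepithelial cells, and a second probe set gave 1.67-fold and 2.47-fold. The alpha subunits GLRA1, GLRA2 and GLRA3, which bind glycine, were at the floor throughout. Of the nucleotide receptors, P2RY1, an ADP receptor that raises calcium in astrocytes, was at 81.4, the floor and 51.7, at least 3.09-fold lower with RA than in neuroepithelial cells. P2RY6, a UDP receptor, was at the floor, 63.1 and 31.6. P2RY2, P2RY8 and P2RY10 were at the floor throughout, and so were P2RY12, P2RY13 and P2RY14, of which P2RY12 and P2RY13 are carried by microglia in brain. All 8 microglia markers were at the floor in neuroepithelial cells, and 7 of 8 on each astrocyte array.

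Position on the chromosome was not used to choose members. RefSeq lists 16 pairs of members as neighbours, with at most 2 other protein-coding genes between them. In 3 of these pairs both genes were above the floor somewhere. GLRB and GRIA2 are adjacent, and both were higher in both astrocyte arrays than in neuroepithelial cells. CHRNA5 and CHRNA3 are adjacent, and both were lower, while CHRNB4, next to CHRNA3, was at the floor. GABRA5 and GABRG3 are adjacent, and GABRG3 barely passed the floor. GABRQ has GABRA3 as its neighbour, which was at the floor on all arrays, so the high GABRQ signal with FGF8 was not shared by the measured gene beside it.

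Among genes that act below G-protein coupled receptors, more were higher than lower. Of 31 on the array 16 were higher and 6 lower in RA astrocytes (28 compared, median 1.36), and 11 higher and 4 lower in FGF8 astrocytes (28 compared, median 0.63). These are 57.1% and 21.4% with RA, beside 18.1% and 14.6% of all genes compared, and 39.3% and 14.3% with FGF8, beside 12.8% and 10.2%. With probe sets averaged the medians were 0.65 and 0.20. ADCY1, a calcium-activated adenylyl cyclase, was at 115 in neuroepithelial cells, 2263 with RA and 284 with FGF8. ITPR2, the calcium release channel of astrocytes, was at the floor, 414 and 192. GNG12, a G-protein gamma subunit, was at 400, 3607 and 358, 10.1-fold higher with RA than with FGF8. PRKCA, a kinase activated through phospholipase C, was 13.2-fold and 4.43-fold higher than in neuroepithelial cells. Among those lower, GRK3, which silences active receptors, was 8.65-fold and 2.18-fold lower, and the arrestin ARRB1 at least 3.38-fold lower in both. KCNJ6, a potassium channel opened by GABA-B receptors, was at 92.5 in RA astrocytes and at the floor elsewhere. Between the astrocyte arrays 9 genes of this list were higher with RA and 3 with FGF8, of 29 compared (median 0.25). These are 31% and 10.3%, beside 9.69% and 7.86% of all genes compared. With probe sets averaged this median was 0.07.

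Genes that make or remove transmitters were higher in both astrocyte arrays on balance. Of 36 on the array 12 were higher and 2 lower in RA astrocytes (22 compared, median 1.17) and 10 higher and 2 lower in FGF8 astrocytes (22 compared, median 0.98). The shares were 54.5% and 9.09% with RA and 45.5% and 9.09% with FGF8, beside the same background of 18.1% and 14.6%, and 12.8% and 10.2%. The medians were 0.57 and 0.33 without a floor, and 0.56 and 0.34 with probe sets averaged. MAOB, which degrades monoamines, was at 27.2, 1241 and 380. The glutamate transporters SLC1A3 and SLC1A2 were 5.60-fold and 7.23-fold higher with RA, and 24.2-fold and 9.55-fold higher with FGF8. ENTPD1, an enzyme that breaks down extracellular ATP, was at the floor, 274 and 86.4, whereas NT5E, which completes the path to adenosine, was above the floor at 159 with FGF8 only. Between the astrocyte arrays 3 were higher with RA and 5 with FGF8, of 20 compared. These are 15% and 25%, beside 9.69% and 7.86% of all genes compared. Of the genes that handle chloride and calcium, 4 were higher and 0 lower in RA astrocytes (8 compared, median 0.73). In FGF8 astrocytes 2 were higher and 1 lower (7 compared, median 0.47). These are 50% and 0% with RA, beside 18.1% and 14.6% of all genes, and 28.6% and 14.3% with FGF8, beside 12.8% and 10.2%. They are few genes to set beside that background. The medians were 0.35 and 0.25 with probe sets averaged. The largest difference with RA was that of the calcium pump ATP2B4, 5.29-fold higher. CALB2, a calcium-binding protein of some GABA neurons, was at the floor in neuroepithelial cells, at 54.3 with RA and at 287 with FGF8. With RA against FGF8, 2 of 8 were higher and 1 lower (median 0.21), or 25% and 12.5%, beside 9.69% and 7.86% of all genes compared. The chloride importer SLC12A2 was within 2-fold at 287, 368 and 398.

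Calls of dim receptor genes turned on the floor and on the probe set rule. With the floor raised to the 70th percentile, some comparisons had an array at the floor and gave only minimum differences, which were under 2-fold. Against neuroepithelial cells these minimums were -0.91 log2 units for CHRNA5 and -0.79 for GRM3 in both astrocyte arrays. They were 0.21 for GRM8 with RA, 0.51 for GRIN2D with RA and 0.26 for GRID1 with FGF8. For RA minus FGF8 the minimums were 0.51 for GRIN2D and -0.06 for GABRB2. Genes at the raised floor on both arrays, among them GRIA4, GRIN2A, CHRNA3 and P2RY6 against neuroepithelial cells, could no longer be compared. With the mean of all probe sets in place of the main one, RA minus neuroepithelial came to -0.36 for CHRNA3, -0.51 for GABRB2, 0.60 for GABRQ, 0.69 for GRM8 and -0.81 for P2RY1. FGF8 minus neuroepithelial came to 0.35 for CHRM3, -0.45 for CHRNA3, -0.26 for CHRNB2, 0.34 for GRID1 and 0.45 for GRM8. RA minus FGF8 came to 0.23 for CHRNB2, -0.55 for GABRA5, -0.76 for GABRB2, 0.88 for GRID1 and 0.56 for GRIK5. Each of these genes has a further probe set at or near the floor on some array, which enters the mean. CHRNB2 between the astrocyte arrays also came within 2-fold with the deposited intensities (0.85) and with array medians set equal (0.99). Under the same scalings a few genes passed 2-fold that had not: GABRA5 with FGF8 against neuroepithelial cells (1.15) and P2RY1 between the astrocyte arrays (-1.08) with medians equal, and P2RY6 between the astrocyte arrays (1.01) with the deposited intensities. GRIK1 with FGF8 against neuroepithelial cells came to 1.12 without the _x_at and _s_at probe sets.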

How the data were processed

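Total RNA from 3 cultures was labelled with biotin at a microarray consortium, per the labels' protocols. The deposited values are linear intensities, 1 per probe set and array. Their mean without the lowest and highest 2% was 150.0 on each array, which shows that they were scaled before deposit. The labels used here name no method for summarising signals. The 54613 non-control probe sets were quantile normalized across the 3 arrays, because the log2 75th percentiles differed by 0.14. Values under the median of 26.4 were raised to it before log2. Of the probe sets 41091 had 1 gene symbol in the platform annotation, 1801 several and 11721 none. A gene took its probe set with the highest mean log2 intensity, leaving out _x_at where it had another. Gene IDs of all 93 members matched the RefSeq table, which gave neighbours. Named genes are members above the floor on some array, by class, and from each other list those with the largest differences or needed for a count; HOMER1, GRIP1, SHANK2 and RIC3 were named after their values were seen. Members and lists were chosen with earlier results of these data known. Groups of 1 array allow no test. The steps were run on simulated arrays, scaled copies of the neuroepithelial array without noise in which bright genes were raised or lowered 4-fold. There 200 of 200 changed genes took the right direction. That run checks the code only, as it held no noise and changed no dim genes near the floor. Alternatives were other scalings, floors, probe set rules and sizes. Python 3.11.15, numpy 2.4.6, pandas 2.3.3, scipy 1.17.1 and matplotlib 3.10.9 were used.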

Additional observations from a re-analysis of the deposited data

Results flagged for a closer look

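KCTD12 stood out because the astrocyte cultures moved in opposite directions from neuroepithelial cells, each past 2-fold: -3.62 log2 units with RA and 1.61 with FGF8, a difference of -5.23. This difference was not tested, since each culture is 1 array. The other KCTD12 probe set gave at least 8.02-fold lower with RA and 2.14-fold higher with FGF8.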

How the results depend on the processing

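No paired analysis was possible because each group is 1 array. No receptor gene past 2-fold changed sign under any alternative run. Of the members past 2-fold, 12 of 23 (RA against neuroepithelial), 10 of 19 (FGF8 against neuroepithelial) and 7 of 14 (RA against FGF8) stayed past it under every scaling, floor and probe set rule that measured them, among them KCTD12 and GABBR2 in all 3 comparisons (GABBR2 has no probe set outside the _x_at and _s_at types) and GRIA1, GRIA2 and GRIA3 in both against neuroepithelial cells. Leaving out a replicate was not possible with 1 array per group. The probe set with the highest mean intensity, an alternative chosen after seeing the data, lost 0 of these calls.

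In RA against neuroepithelial cells (15 higher, 8 lower, median 0.34), the number lower was 13 with the floor at the 30th percentile, 3 with it at the 70th, 5 with probe sets averaged and 5 at 4-fold; without a floor 37 were higher and 19 lower. The median was 0.17 with the deposited intensities, 1.08 with the floor at the 70th percentile, 0.71 without one and 0.14 with probe sets averaged. In FGF8 against neuroepithelial cells (13 higher, 6 lower, median 0.27), the counts were 20 and 12 with the lower floor, 8 and 2 with the higher, 30 and 20 without one and 5 and 3 at 4-fold. The median was 0.057 with the deposited intensities, 1.57 with the higher floor and 0.11 without one. In RA against FGF8 (8 higher, 6 lower, median 0.07), the counts were 15 and 11 with the lower floor, 5 and 3 with the higher, 28 and 17 without one and 4 and 3 at 4-fold; 5 were higher with probe sets averaged and 14 at 1.5-fold. The median was 0.29 with the lower floor, 0.52 with the higher and 0.47 without one. The median of the transmitter synthesis and clearance list between the astrocyte arrays, 0.21, turned to -0.39 with the higher floor and to -0.40 without the _x_at and _s_at probe sets, and that of the receptor partners in FGF8 astrocytes, 0.09, to -0.04 with the deposited intensities. A floor changes how many dim genes are compared, and a size threshold how many pass; the cause of the other shifts was not tested. Most receptor genes are dim, so signal over background limits what was compared.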

Other observations

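Other probe sets of a gene mostly took the direction of the main one. Among receptor genes past 2-fold, 26 of 27 other probe sets above the floor did so in RA against neuroepithelial cells, 18 of 20 in FGF8 against neuroepithelial cells and 17 of 19 between the astrocyte arrays. Probe sets of a gene share the RNA of the array and are no replicates.

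A further 5 probe sets carry a receptor symbol beside that of another gene and were left out of the members. The probe set shared by CHRNA7 and its partial copy CHRFAM7A was at 51.8 in FGF8 astrocytes and at the floor elsewhere. The other 4 were at the floor on all 3 arrays. Antisense genes of CHRM3, GRID1, GRIK1, GRM8 and GABRG3 with probe sets of their own were at the floor on all 3 arrays, including those of GRIK1 and CHRM3 in RA astrocytes.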
